A study of Mus musculus with 12 samples.

Results

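DNA replication is licensed in G1, when the MCM helicase is loaded onto origins with the help of the loading factor Cdc6. At the forks that fire from these origins, the clamp Pcna is placed on DNA by the clamp loader, DNA polymerases extend the new strands, and the flap nuclease Fen1 trims the ends of Okazaki fragments. Transcripts of these proteins are known to be abundant in cycling progenitors and low in cells that have left the cell cycle, and many of the genes are known targets of the E2F transcription factors. The genes described here are the members of this machinery chosen by symbol from a NanoString panel of mouse cancer pathway genes: Cdc6 and the MCM subunits Mcm2, Mcm4, Mcm5 and Mcm7 for licensing, and Pcna, the clamp loader subunits Rfc3 and Rfc4, Fen1 and the DNA polymerase epsilon subunit Pole2 for the fork. These were 10 of the 770 genes measured, and all 10 were found in the table with a value in each of the 12 samples.

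The samples were 5 RBS lesions, 4 control eyes and 3 Shh-MBs, each from 1 animal. RBS lesions are tumor-like eye lesions of Rax-creERT2::Ctnnb1(ex3)Fl/+SmoM2Fl/+ mice, in which tamoxifen at E8.5 induced Cre from the Rax promoter in retinal precursors, so that beta-catenin was stabilised by loss of exon 3 and an active Smo was expressed. They were collected at E18.5. Control eyes were collected at the same stage from Ctnnb1(ex3)Fl/+SmoM2Fl/+ mice, which carry both floxed alleles without Cre, and the labels do not say whether these mice received tamoxifen. Shh-MBs are hindbrain tumors of hGFAP-cre::SmoM2Fl/+ mice at 14 days of age, in which the human GFAP promoter drives Cre in neural precursors. Genotype, tissue and age differ together between Shh-MBs and the eyes and cannot be told apart. In whole tissue, fewer cycling cells and less RNA per cell cannot be told apart either.

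All values are the deposited normalized signal, on a linear scale after background subtraction, and differences are differences of group means of log2(signal + 1). Low values in a sample lay on even steps, and the summed signal divided by that step, which estimates the counts behind a sample, ran from 335392 to 716684, with the lowest value in RBS 1. None of 13 eye and retina marker genes was on the panel, so the label of the eyes could not be checked in this way. Zic2, a gene of cerebellar granule cell precursors, was at 924 to 1142 in Shh-MBs against 223 to 385 in the 9 eye samples. The targeted gene Ctnnb1 was at 5688 ± 171 (SD, n = 4) in control eyes and at 7957 ± 395 (SD, n = 5) in the lesions, but the position of its probe relative to exon 3 is not given in the sources used here, so it does not check the deletion. Smo was at 157 ± 14.5 (SD, n = 4) in the former and at 177 ± 13.6 (SD, n = 5) in the latter, with a sign that turned between scalings.

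RefSeq promoter windows (GRCm38.p6, 250 bases before to 50 bases after the listed start) were available for 9 of the 10 genes. The E2F motif, spelled as TTTCCCGC, TTTCGCGC, TTTGCCGC and TTTGGCGC, was searched on both strands. A match was found in 5 of these 9 genes, or 55.6%, against 6.51% of the 568 panel genes with a window. A gene can have more than 1 window, and counted by window a match lay in 5 of 11 windows of the members, or 45.5%, against 5.31% of the 754 windows of panel genes and 2.26% of all 32851 windows in the table. The 30 bases around each match are shown because these genes share it, with the matches in capitals, 5′ to 3′ along the gene's strand.

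Mcm5, chr8:75109347-75109376, + strand: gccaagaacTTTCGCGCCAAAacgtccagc
Mcm7, chr5:138172030-138172059, - strand: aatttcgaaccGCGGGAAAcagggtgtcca
Mcm7, chr5:138171849-138171878, - strand: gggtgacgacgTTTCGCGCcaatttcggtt
Rfc3, chr5:151651195-151651224, - strand: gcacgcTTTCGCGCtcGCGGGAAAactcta
Cdc6, chr11:98908002-98908031, + strand: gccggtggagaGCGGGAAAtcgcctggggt
Pole2, chr12:69228162-69228191, - strand: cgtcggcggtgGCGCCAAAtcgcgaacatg

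In Mcm5 the capitals are 2 overlapping matches, on opposite strands, from -153 to -142 counted from the start. The Cdc6 match lay at -138 to -131 and the upstream Mcm7 match at -165 to -158. The Rfc3 matches lay across the start, from -10 to 8, and those of Pole2 and the second of Mcm7 lay just after it, at 11 to 18 and 17 to 24. Mcm2, Pcna, Fen1 and Rfc4 had no match in their windows. The shorter CCAAT box, the letters CCAAT on either strand, was also found in 5 of 9 genes (Mcm2, Mcm5, Mcm7, Pcna and Rfc3), against 41.9% of panel genes, and in 6 of the 11 windows of the 9 genes, against 34.6% of panel windows and 37.4% of all windows. In Mcm7 a CCAAT shared a base with an E2F match. The RefSeq records of Mcm5, Mcm7, Cdc6 and Pole2 begin upstream of the listed start, so that other transcripts can start before it. These are matches of letters and not measured binding. Among the genes that were lower in RBS lesions, as described next, were some with and some without a match, and Rfc3, which did not pass the test, held 2 matches.

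Most of the replication genes were lower in RBS lesions than in both other groups. Against control eyes, 9 of the 10 genes fell, with log2 differences from -0.90 for Mcm7 to -1.94 for Cdc6, and Rfc3 did not pass the test. Over the whole panel, 140 of 770 genes (18.2%) passed the test in that direction. The median difference of the 10 genes was -1.10, beside 0.17 for all genes. The same 9 genes had no overlap between RBS lesions and control eyes, which was true in this direction of 15.8% of the panel. No member rose, while 33.0% of the panel passed the test in that direction. Most of the genes are among those for which the study itself drew attention to a lower level in these samples, so that the count is not independent evidence of the direction. The test was limma with Benjamini-Hochberg adjustment over all 770 genes.

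**Figure D1:**
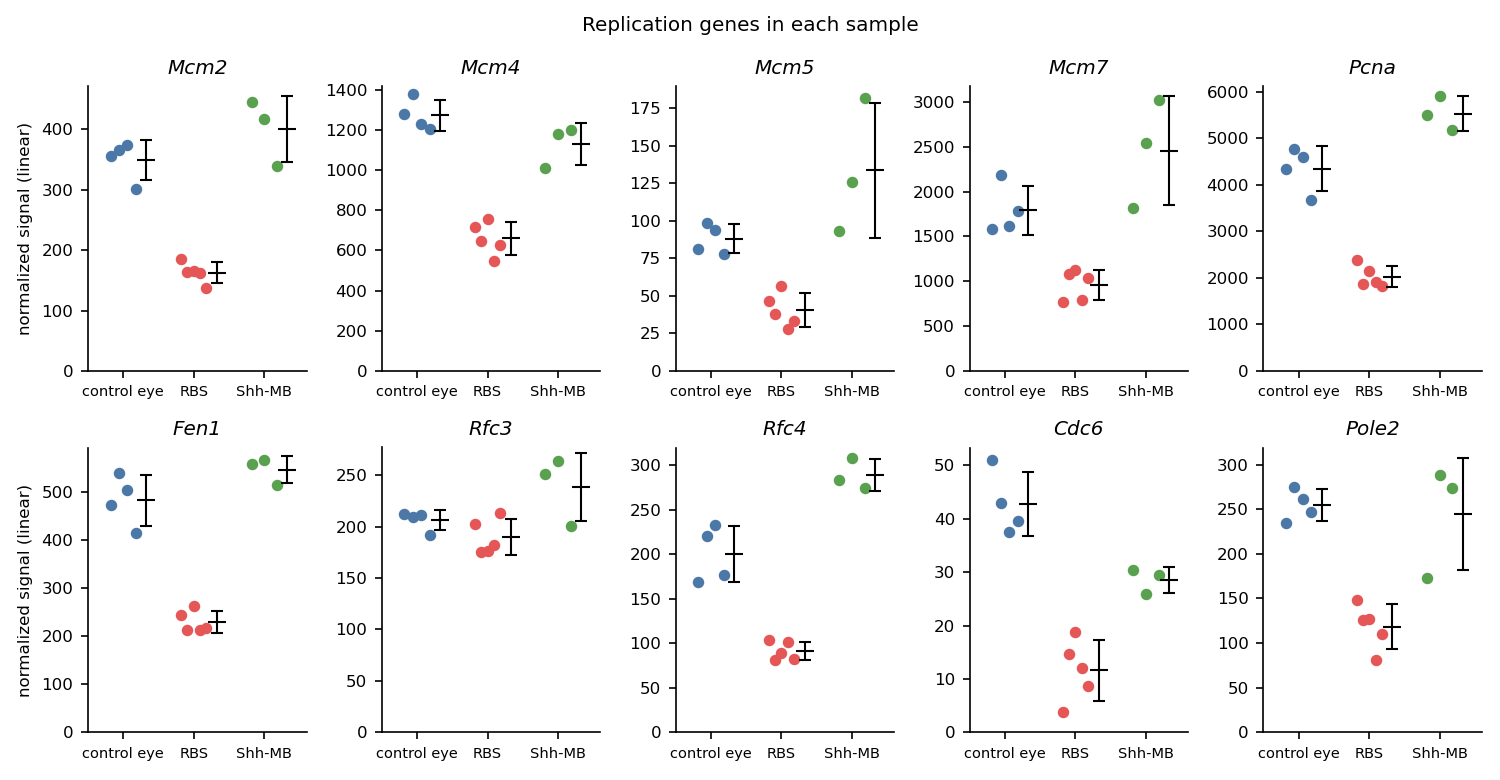
Normalized signal (linear, each panel from 0) of the 10 replication genes in every control eye, RBS lesion and Shh-MB, one point per animal, with the group mean and SD as a bar beside the points. In every panel but that of Rfc3 the 5 RBS lesions lie below all control eyes and all Shh-MBs.

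Cdc6, the factor that brings the helicase to origins, had the largest difference of the 10. Its signal was 51.0, 42.9, 37.5 and 39.7 in the control eyes and 3.75, 14.7, 18.9, 12.1 and 8.72 in the RBS lesions. All lesions lay below all control eyes, and their mean was 27.2% of the control mean. The log2 difference was -1.94 (95% CI -2.78 to -1.10, adjusted p = 0.00215 by limma). RBS 1 had the lowest Cdc6 value, close to the floor, in the sample with the largest step between values (1.64 signal units), and without it the difference was -1.62 (adjusted p = 0.000569 by limma). With all values under 20 set to 20, a setting that hides everything the lesions show below that level, it was -1.09.

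The MCM subunits form the core of the replicative helicase. Mcm2 was at 356, 366, 374 and 301 in control eyes and at 186, 164, 165, 163 and 137 in RBS lesions. The highest lesion was thus well under the lowest control eye, and Mcm2 fell 2.14-fold (log2 difference -1.10 ± 0.11 SE, adjusted p = 6.50e-05 by limma). Mcm4 was at 1281, 1378, 1231 and 1203 in control eyes and at 716, 648, 758, 548 and 628 in RBS lesions, a log2 difference of -0.95 (95% CI -1.20 to -0.71, adjusted p = 0.000121 by limma). Its CV was 6.03% in control eyes and 12.3% in lesions, beside a median CV over the 10 genes of 11.0% and 11.8%.

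Mcm5 varied most of the MCM genes among the lesions. It was at 81.5, 98.7, 93.8 and 78.2 in control eyes and at 46.4, 38.2, 56.8, 27.8 and 33.4 in RBS lesions. The lesions spanned a wider range than the control eyes (CV 28.1% against 11.1%) without reaching them, and the log2 difference was -1.14 (95% CI -1.59 to -0.69, adjusted p = 0.00123 by limma). Mcm7 was at 1585, 2179.6, 1618 and 1778 in control eyes and at 764, 1084, 1127, 796 and 1034 in RBS lesions. It had the smallest difference among the 9 genes that fell, -0.90 (95% CI -1.26 to -0.55, adjusted p = 0.00123 by limma).

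At the fork, the sliding clamp Pcna tethers polymerases to DNA. Its signal was 4328, 4767, 4594 and 3665 in control eyes and 2372, 1872, 2137, 1911 and 1827 in RBS lesions. The lesion mean was 46.6% of the control mean (log2 difference -1.10, 95% CI -1.36 to -0.84, adjusted p = 7.87e-05 by limma). Fen1 was at 473, 539, 505 and 415 in control eyes and at 245, 213, 262, 212 and 217 in RBS lesions. This was 2.09-fold lower in the lesions (log2 difference -1.07, 95% CI -1.31 to -0.82, adjusted p = 6.97e-05 by limma), and the lesions lay within a narrow range (CV 9.79%).

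Pole2, the accessory subunit of the polymerase that copies the leading strand, was at 234, 275, 262 and 247 in control eyes and at 148, 126, 127, 80.8 and 110 in RBS lesions. RBS 4 was the lowest lesion for Pole2, as it was for Mcm4 and Mcm5. The log2 difference was -1.12 (95% CI -1.49 to -0.75, adjusted p = 0.000470 by limma).

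The clamp loader subunits Rfc3 and Rfc4 gave different results. Both belong to the core of the complex that opens Pcna and closes it around DNA, and both are shared with other clamp loaders used in checkpoint signalling and repair. Rfc4 was at 169, 220, 233 and 177 in control eyes and at 104, 81.9, 89.4, 101 and 82.8 in RBS lesions. It fell 2.16-fold (log2 difference -1.11, 95% CI -1.40 to -0.81, adjusted p = 0.000140 by limma). Rfc3 was at 212, 209, 212 and 192 in control eyes and at 202, 175, 176, 182 and 214 in RBS lesions.

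For Rfc3, RBS 5 was above every control eye and RBS 2, RBS 3 and RBS 4 were below them all. The lesion mean was 92.1% of the control mean, and the log2 difference of -0.12 did not pass the test (95% CI -0.33 to 0.08, adjusted p = 0.303 by limma). That interval did not meet the interval of any of the other 9 genes, the nearest being Mcm7 with an upper bound of -0.55. The ratio of Rfc3 to another member, taken within each sample, cancels the scaling of that sample. For all 9 such ratios the RBS lesions and control eyes did not overlap. Over all 45 pairs of members this held for 12. Rfc3 was singled out for its small difference in these same values, and the other 9 genes were each without overlap. The ratios are thus no further evidence that Rfc3 stands apart. Between RBS lesions and Shh-MBs, 6 of the 9 ratios with Rfc3 were without overlap, and 14 of all 45 pairs. The smallest two-sided exact permutation p over samples for a ratio was 0.00794, which became 0.0941 with Benjamini-Hochberg adjustment over the 135 ratios compared (45 pairs in 3 comparisons), and so no single ratio passed. With each sample centred on the median of all genes, Rfc3 was also called lower, at -0.30 (adjusted p = 0.0426 by limma).

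An exact two-sided permutation test over samples gave 0.00794, the smallest value that 126 splits of 9 eyes allow, for 8 of the genes that fell. It gave 0.0159 for Mcm5 and 0.127 for Rfc3. In each comparison this test was run on the 10 members only, so its counts have no share over the panel beside them. Leaving out each sample in turn kept the count at 9.

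**Figure D2:**
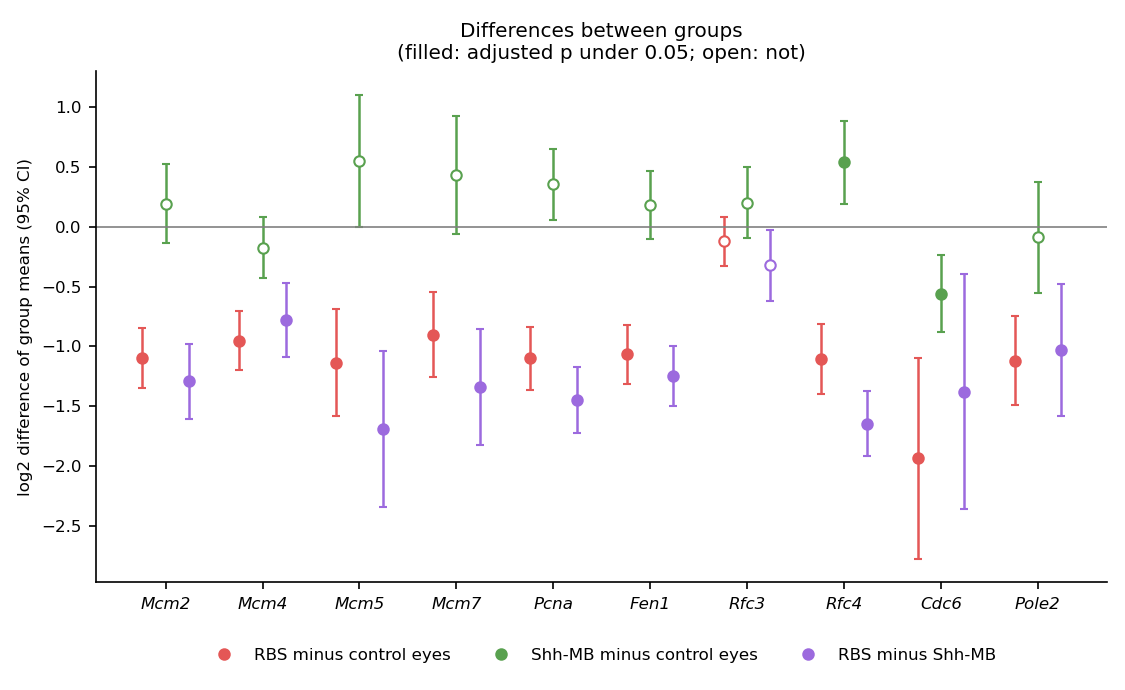
Log2 difference of group means (y axis, bars are 95% confidence intervals from limma) for the 10 replication genes in the 3 comparisons. Filled points passed an adjusted p of 0.05 and open points did not. For RBS lesions against control eyes, the interval of Rfc3 (-0.33 to 0.08) is the one that includes 0.

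Shh-MBs served as a tumor driven by the same active Smo allele in another tissue. RBS lesions were lower than Shh-MBs in the same 9 genes, with Rfc3 again outside. The calls in this direction covered 12.7% of the panel, and 12.9% of the panel was without overlap in this direction, as were 9 of the members. The median difference of the 10 genes was -1.32, beside 0.53 for all genes. With each sample centred on the median of all genes it was -2.16, and 41.4% of the panel was then called lower. This comparison uses the RBS lesions a second time, so its values are given for their own sake and not as a repeat.

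The widest differences from Shh-MBs were those of Mcm5 and Rfc4. Mcm5 was at 93.2, 126 and 182 in Shh-MBs, a log2 difference of RBS lesions from Shh-MBs of -1.69 (95% CI -2.34 to -1.04, adjusted p = 0.000992 by limma). The 3 tumors spread most widely for this gene (CV 33.6%), and the lowest of them was still above the highest lesion at 56.8. Rfc4 was at 284, 309 and 275 in Shh-MBs, and the difference was -1.65 (95% CI -1.92 to -1.37, adjusted p = 1.21e-05 by limma).

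Pcna was at 5493, 5914 and 5169.8 in Shh-MBs, 2.74-fold above the lesions (log2 difference of RBS lesions from Shh-MBs -1.45, adjusted p = 2.38e-05 by limma). Mcm7 was at 1814, 2537 and 3017 in Shh-MBs, a difference of -1.34 (adjusted p = 0.000698 by limma). Mcm2 was at 446, 417 and 340 and Fen1 at 559, 565 and 515. All these tumor values lay above every lesion, and the differences were -1.29 for Mcm2 (adjusted p = 8.42e-05 by limma) and -1.25 for Fen1 (adjusted p = 3.46e-05 by limma).

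At the deposited scaling, 3 of the 10 genes had their highest mean in control eyes instead of Shh-MBs: Mcm4, Cdc6 and Pole2. For these 3 the sign of the difference between Shh-MBs and control eyes turned under other scalings. Mcm4 was at 1009, 1182 and 1199 in Shh-MBs and differed by -0.78 from them in RBS lesions (adjusted p = 0.00111 by limma). Pole2 was at 173, 288 and 274, with 1 tumor apart from the other two, and the difference was -1.03 (95% CI -1.59 to -0.48, adjusted p = 0.00568 by limma). Cdc6 was at 30.5, 25.8 and 29.5, and the difference was -1.38 (95% CI -2.37 to -0.39, adjusted p = 0.0219 by limma). The Cdc6 call was lost without Shh-MB 1 (adjusted p = 0.0590 by limma) or without Shh-MB 3 (adjusted p = 0.0615 by limma), where the difference was -1.33 and -1.36, and with all values under 20 set to 20 the difference was -0.51.

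Rfc3 was at 251, 264 and 201 in Shh-MBs, so that Shh-MB 3 lay inside the range of the lesions. The difference of RBS lesions from Shh-MBs was -0.32 (95% CI -0.62 to -0.03, adjusted p = 0.0585 by limma). It passed the test in several other settings, among them median centring, where it reached -1.17 with the median of all genes at -0.32. In the exact two-sided permutation test over samples, 9 genes were under 0.05 in this comparison (8 at 0.0179, the smallest value of 56 splits, and Cdc6 at 0.0357). Rfc3 was at 0.0714, and the rest of the panel was not put through this test.

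**Figure D3:**
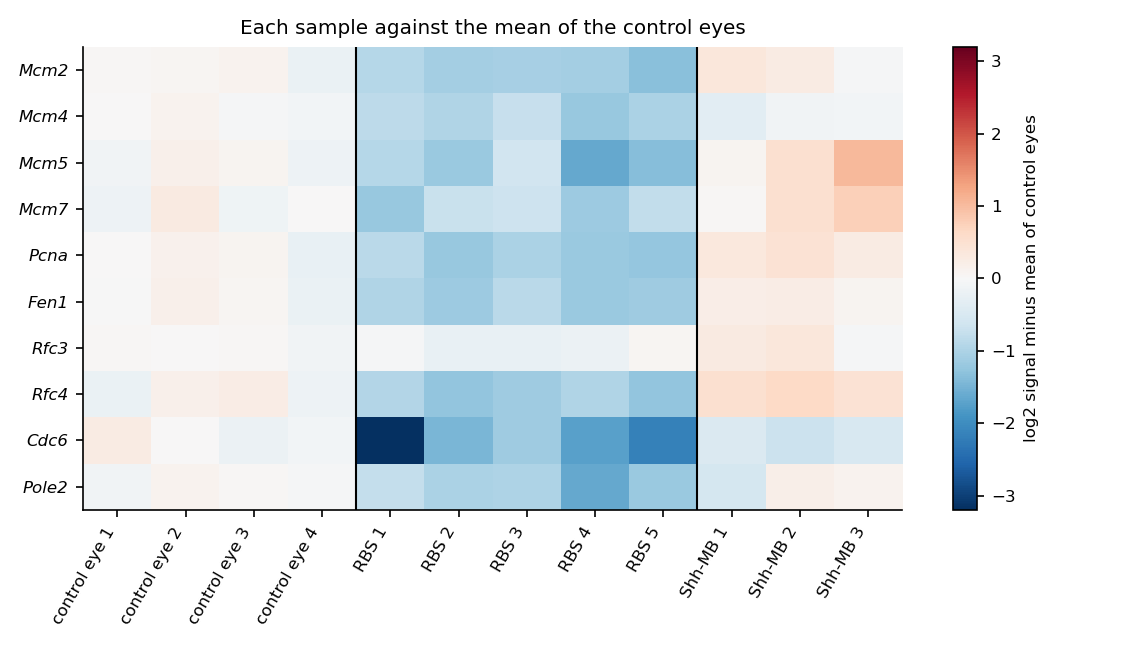
Log2 signal of each replication gene (rows) in each sample (columns) minus the mean of the control eyes, with blue below and red above that mean. The RBS columns are blue in every row but Rfc3, and the darkest cell is Cdc6 in RBS 1 at -3.20.

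Levels of the replication genes in Shh-MBs and control eyes were closer to each other. At the deposited scaling, Rfc4 was 1.45-fold higher in Shh-MBs (log2 difference 0.54, 95% CI 0.19 to 0.89, adjusted p = 0.0241 by limma) and Cdc6 was 1.47-fold lower (log2 difference -0.56, 95% CI -0.88 to -0.24, adjusted p = 0.0159 by limma), although the sign for Cdc6 turned when samples were centred on the median of all genes or quantile normalized. The Cdc6 call was also lost at the same scaling with all 12 samples in 1 fit (adjusted p = 0.276 by limma) and with limma's trend and robust options (adjusted p = 0.0626), and in both of these fits Pcna was called higher beside Rfc4 (adjusted p = 0.0380 and 0.0179 by limma). Calls over the whole panel were 9.61% higher and 31.4% lower, against 1 of 10 members in each direction. Without Shh-MB 2 neither call was made, and without control eye 1, control eye 4 or Shh-MB 3 only Cdc6 was called. Without Shh-MB 1, Rfc4 was no longer called (adjusted p = 0.0502 by limma), while Mcm5 (0.78, adjusted p = 0.0214 by limma) and Mcm7 (0.64, adjusted p = 0.0307 by limma) were called higher beside the lower Cdc6. Pcna and Rfc4 were higher without overlap, as were 12.2% of the panel, and Mcm4 and Cdc6 were lower without overlap, as were 36.0% of the panel.

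The other 8 genes did not pass the test between Shh-MBs and control eyes. The intervals of their differences still allowed sizeable changes, from -0.06 to 0.93 for Mcm7, from just below 0 to 1.11 for Mcm5 and from 0.06 to 0.65 for Pcna on the log2 scale. They were tightest for Mcm4 (-0.43 to 0.08) and Fen1 (-0.10 to 0.47). The exact two-sided permutation test cannot give less than 0.0286 with 35 splits, a value that Pcna and Cdc6 reached.

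The size of the differences between Shh-MBs and control eyes, and the calls, depended on how samples were scaled, while the direction turned for 3 of the 10 genes (Mcm4, Cdc6 and Pole2). The median difference of all genes was -0.22 as deposited and 0.44 after each sample was centred on the median of all genes, and the members moved with it, from a median of 0.20 to 0.86. Under median centring, scaling to the summed signal of all but the 3 brightest genes, or quantile normalization, 7 members were called higher in Shh-MBs. Much of the panel moved the same way, with 40.4%, 20.8% and 28.7% of all genes called higher under these scalings, against 9.61% as deposited. Mcm4 and Pole2 then changed sign without being called, and Cdc6 was 1 of the 7 only with quantile normalization. The direction of RBS lesions against either other group did not turn for any of the 10 genes under the scalings tried.

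**Figure D4:**
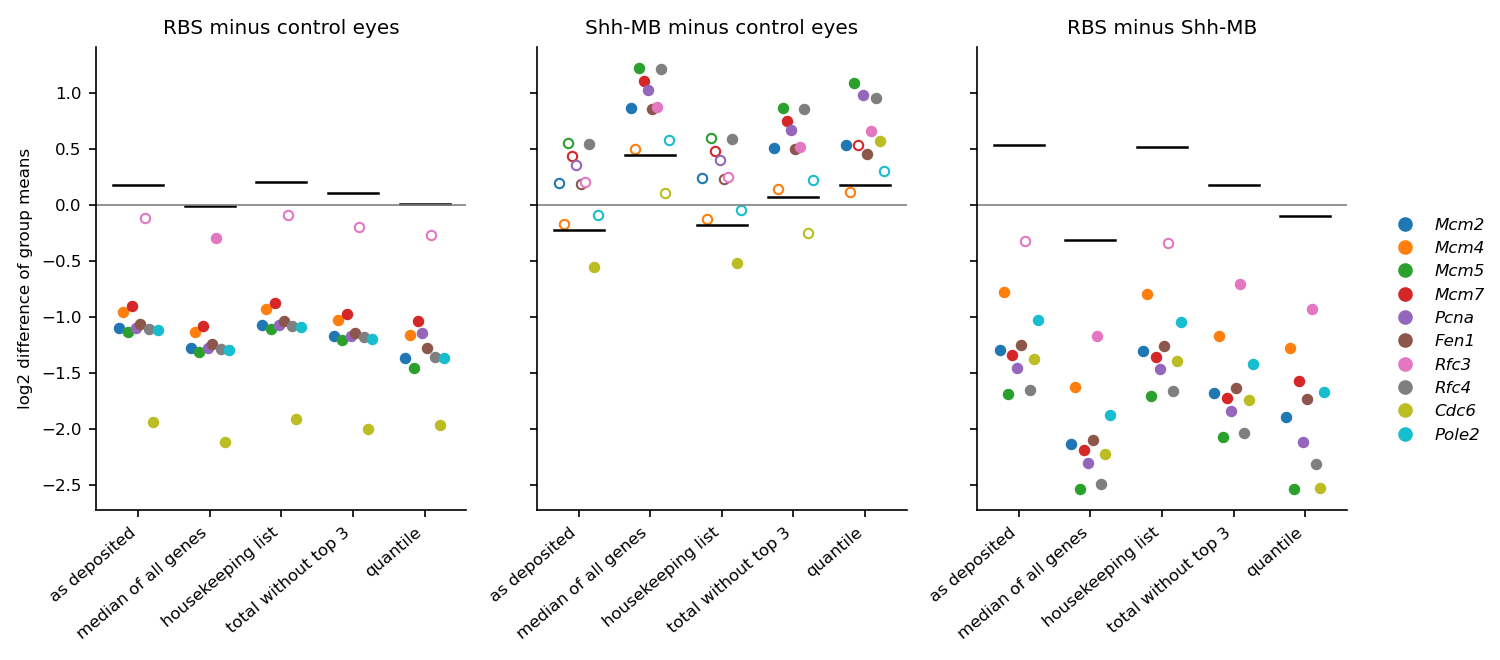
Log2 difference of group means (y axis) for the 10 replication genes under 5 ways of scaling the samples (x axis), for each comparison, with the median of all 770 genes as a black line. Filled points passed an adjusted p of 0.05. All members stay below 0 for RBS lesions under each scaling, while 3 members cross 0 for Shh-MBs against control eyes.

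Within groups, samples also differed from one another across the replication genes. Control eye 2 was above the group mean for 10 of 10 genes and control eye 4 for 1 of 10. Among the lesions, RBS 1 and RBS 3 were above the lesion mean for 8 of 10 genes and RBS 5 for 2 of 10. With group means removed, the correlation of log2 values between pairs of members over the 12 samples had a median r of 0.26 (range -0.53 to 0.90, 45 pairs), and 30 of 45 pairs were above 0. Over the 9 eye samples the median was 0.27 with 33 of 45 above 0. Samples share their scaling across all genes, so part of such a correlation is shared by construction. Over the 12 samples Cdc6 and Rfc3 had the lowest median r with the other members, at -0.19 and -0.05, and Mcm4 the highest at 0.55. Over the 9 eyes Cdc6 and Rfc3 were again lowest, at -0.23 and 0.04, while Pcna was highest at 0.65 and Mcm4 was at 0.42.

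Among the panel genes with the pattern most like the mean of the 10 members over the 12 samples were Ccna2 (r = 0.99), Ttk (0.99), Wee1 (0.99), Hist1h3b (0.98) and Hells (0.97). These values mostly carry the difference between the groups. Ccna2, the S and G2 phase cyclin, was at 1863 ± 194 (SD, n = 4) in control eyes, 733 ± 97.6 (SD, n = 5) in the lesions and 2169.7 ± 155 (SD, n = 3) in Shh-MBs. Hist1h3b, a replication-dependent histone gene, was at 81738 ± 11675 in control eyes, 27578 ± 3771 in lesions and 84050.1 ± 2208 in Shh-MBs. With group means removed, the genes most like the members were Nasp (r = 0.83), a histone chaperone, U2af1 (0.82), Ccna2 (0.80), Gadd45a (0.80), E2f1 (0.80) and Myb (0.79). Ccna2 was on both lists.

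Other genes of the replication machinery were few on the panel, 5 of a list of 54. In RBS lesions, 3 of the 5 fell against control eyes and none rose: Top2a, the topoisomerase that untangles replicated DNA, by -1.46 (adjusted p = 1.56e-05 by limma), Pold1, the catalytic subunit of polymerase delta, by -1.20 (adjusted p = 2.46e-05) and Rpa3, a subunit of the single-strand binding protein, by -0.37 (adjusted p = 0.0176). Over the whole panel 18.2% were lower and 33.0% higher, and the list median was -0.37 beside 0.17 for all genes. The polymerase delta subunit Pold4 was not called there. Against Shh-MBs, 3 of the 5 were lower and Pold4 was higher in RBS lesions, beside 12.7% lower and 48.1% higher over the panel. Pold4 was at 134 ± 26.1 (SD, n = 5) in lesions and 63.9 ± 6.73 (SD, n = 3) in Shh-MBs. Its difference of 1.04 came down to as little as 0.16 under other scalings. With median centring 4 of the 5 were lower and 0 were higher, beside 41.4% lower and 23.5% higher over the panel. Quantile normalization gave the same counts, beside 30.4% lower and 26.5% higher.

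Of 25 measured regulators of the G1/S transition, 10 fell and 3 rose in RBS lesions against control eyes, with a median of -0.19, beside 18.2% lower and 33.0% higher over the whole panel. Cyclin D1, which drives cells out of G1, showed the largest change of the list. Ccnd1 was at 13870.3 ± 1834 (SD, n = 4) in control eyes and 1856 ± 374 (SD, n = 5) in lesions (log2 difference -2.91, adjusted p = 3.48e-06 by limma). E2f1, an activator of replication genes, fell 4.01-fold, from 503 ± 66.1 to 127 ± 30.6 (adjusted p = 3.44e-05 by limma). The CDK inhibitor gene Cdkn2b rose (1.34, adjusted p = 0.000168 by limma), from 8.47 to 11.5 in control eyes, near the floor, to 18.7 to 33.3 in lesions. Rb1, which restrains E2F (0.45, adjusted p = 0.00590 by limma), and E2f5, a repressive family member (0.37, adjusted p = 0.00352 by limma), also rose. When samples were centred on the median of all genes, 14 of the list fell and 1, Cdkn2b, rose, beside 23.0% of the panel in each direction.

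Against Shh-MBs, 13 of the 25 G1/S regulators were lower and 5 were higher in RBS lesions, beside 12.7% lower and 48.1% higher over the whole panel. The widest difference was the CDK inhibitor gene Cdkn1c, at 2632 ± 237 (SD, n = 5) in lesions and 105 ± 16.3 (SD, n = 3) in Shh-MBs, followed by lower Mycn (-2.36), Cdk6 (-2.19) and Cdkn2c (-1.84). Cdkn1c was at 2974 ± 877 (SD, n = 4) in control eyes.

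Mitotic genes fell in 5 of 8 cases in RBS lesions against control eyes, with a median of -0.87. Among them were the phosphatase gene Cdc25c (-1.55, adjusted p = 7.59e-05 by limma) and the spindle checkpoint kinase gene Ttk (-1.47, adjusted p = 3.44e-05 by limma). Mad2l2 rose (1.19, adjusted p = 0.000193 by limma), and it is best known as a subunit of translesion polymerase zeta. Replication stress checkpoint and fork protection genes fell in 13 of 17 cases and none rose, with a median of -0.78. For both lists the shares over the whole panel were 18.2% lower and 33.0% higher. The checkpoint genes that fell included the helicase gene Brip1 (-1.67, adjusted p = 0.000470 by limma), Brca1 (-1.43) and the checkpoint kinase gene Chek1 (-1.23). Brip1 was at 6.89 to 16.9 in the lesions, near the floor, so the size of its difference is uncertain. Against Shh-MBs, 4 of the 8 mitotic genes were lower and 0 were higher in RBS lesions, and 11 of the 17 checkpoint genes were lower and 1 was higher, beside 12.7% lower and 48.1% higher over the panel. With median centring, which moved the median of all genes from 0.53 to -0.32 in this comparison, all 8 mitotic and all 17 checkpoint genes were lower, and of the G1/S regulators 20 were lower and 1 was higher, beside 41.4% lower and 23.5% higher over the panel. Between Shh-MBs and control eyes the counts higher and lower were 0 and 2 of 5, 9 and 4 of 25, 1 and 2 of 8, and 2 and 3 of 17 for the other replication, G1/S, mitotic and checkpoint genes. With median centring these became 3 and 0, 17 and 2, 6 and 0, and 8 and 0, while the panel as a whole went from 9.61% higher and 31.4% lower to 40.4% higher and 18.1% lower.

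**Figure D5:**
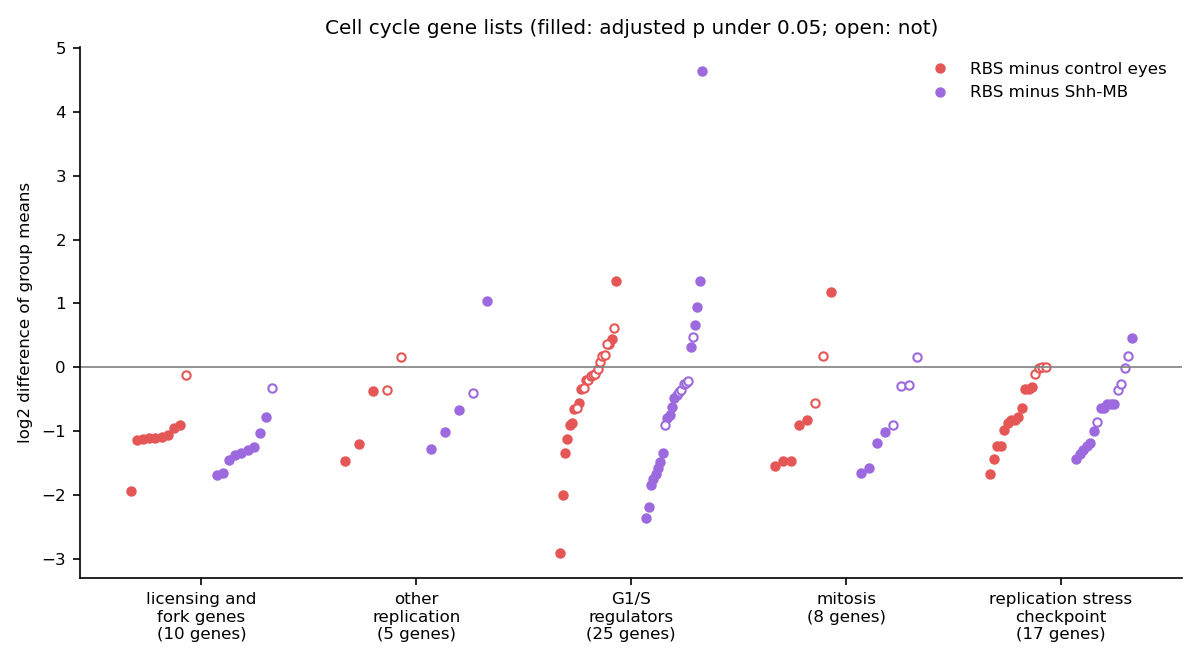
Log2 difference of group means (y axis) for each measured gene of the replication set and of 4 other cell cycle lists, for RBS lesions minus control eyes (red) and minus Shh-MBs (purple). Filled points passed an adjusted p of 0.05. The replication stress checkpoint list holds 13 called genes of 17 below 0 against control eyes and none above.

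Markers of other cell types moved with the groups. The summed signal of 6 neuronal genes (of 11 listed) was 2421 to 3189 in RBS lesions against 679 to 825 in control eyes and 695 to 972 in Shh-MBs. In the lesions 5 of the 6 rose against control eyes, such as Mapt at 2006 ± 269 (SD, n = 5) against 615 ± 62.2 (SD, n = 4), and Grin2b at 287 ± 34.9 against 31.4 ± 10.1. Most of the sum came from Mapt in lesions and control eyes, and single genes did not follow the sum in Shh-MBs. There 4 of the 6 were higher than in control eyes, among them Cacna1e (2.91), Grin1 (1.90) and Gria3 (1.80), and Mapt was lower (-1.02), with a list median of 1.36 beside -0.22 for all genes and 9.61% higher and 31.4% lower over the panel. Cacna1e and Grin1 were near the floor in control eyes, at 3.53 to 7.38 and 4.25 to 13.4. Against Shh-MBs, 3 of the 6 were higher in RBS lesions and 1, Gria3, was lower (-0.73), beside 48.1% higher and 12.7% lower over the panel. The sum of 7 mesenchymal genes was 19843 to 36410 in lesions, 25546 to 57829 in control eyes and 1475 to 2099 in Shh-MBs. Pdgfra went against this list, with 483 ± 40.1 in lesions, 349 ± 120 in control eyes and 982 ± 184 in Shh-MBs (mean ± SD). In Shh-MBs it was higher than in control eyes (1.53, adjusted p = 0.00505 by limma) and 6 of the 7 were lower. In RBS lesions it was lower than in Shh-MBs (-1.01, adjusted p = 0.000466 by limma) and 6 were higher. Shares over the panel were those given above for these comparisons. The sum of 2 endothelial genes was 622 to 858 in lesions, 1683 to 2163 in control eyes and 93.8 to 196 in Shh-MBs. Most of it was Kdr, at 664 ± 109 (SD, n = 5) in lesions and 1864 ± 235 (SD, n = 4) in control eyes. The other gene, Flt1, was not called between these groups, and its sign turned between scalings. The sum of 5 blood and immune genes was 239 to 293, 126 to 189 and 123 to 242 in the order of lesions, control eyes and Shh-MBs. In the lesions, 2 of the 7 mesenchymal genes and 1 of the 2 endothelial genes fell against control eyes, and 2 of the 5 blood and immune genes rose, beside 18.2% lower and 33.0% higher over the whole panel. Of 6 genes listed as glial markers only Sox9 was measured, and 1 gene does not measure the number of glia. Sox9 was at 524 to 729 in lesions, 375 to 485 in control eyes and 356 to 419 in Shh-MBs. It rose in lesions against control eyes (0.52, adjusted p = 0.00562 by limma). Its higher level than in Shh-MBs (0.65, adjusted p = 0.00231 by limma) changed sign under other scalings. The part of these other cells in the lower replication gene signal of the lesions was not tested.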

How the data were processed

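RNA from frozen tissue of single animals was measured with the NanoString nCounter Mouse PanCancer Pathways panel. The authors used nSolver and its Advanced Analysis module to subtract background and normalize, and deposited linear normalized signal for each gene and sample. The background setting and reference genes are not given in the sources used here. Whole counts could not be recovered, so log2(signal + 1) was tested with limma 3.58.1 (R 4.3.3), with each pair of groups fitted separately, no filter on low values and Benjamini-Hochberg adjustment over 770 genes. An adjusted p under 0.05 is a call, and p-values measure the spread between animals. Exact permutation tests used scipy 1.17.1. The code was tested on simulated data.

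Alternatives were other scalings (median of all genes, 18 housekeeping genes, total without the 3 most abundant genes, quantile), pseudocount 5, a low signal filter at 20, values under 20 set to 20 (chosen after seeing the data), limma with trend and robust, 1 fit of all 12 samples, the methods' t-test without its permutation step, a replicate block and leaving out each sample. Replicate numbers did not pair the samples, which came from individual animals.

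Members and gene lists were chosen with earlier results of these data known. Named genes are the members, the targeted genes, up to 4 called genes with the largest difference per list and comparison plus those called against most of their list, and the 6 genes most like the members' mean by Pearson correlation over all samples and with group means removed. A gene that this rule names is not reported here. Promoter sequences are from RefSeq (GRCm38.p6) and were matched by symbol.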

Additional observations from a re-analysis of the deposited data

Results flagged for a closer look

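Rfc3 in control eye 4, at a signal of 192, stood apart from the other control eyes at 209 to 212. The gap to its nearest neighbour was 0.877 of the range of the 4 control eyes, above Dixon's limit for that group size. This was 1 of 20 groups of 4 or 5 samples checked in this way, and chance gives about 1 in 20. Without this eye the log2 difference of Rfc3 between RBS lesions and control eyes was -0.16 (adjusted p = 0.231 by limma), and it did not pass the test with or without it.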

How the results depend on the processing

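For RBS lesions against control eyes, 9 members were called in 9 of 9 fits that left out a sample, and the median difference stayed between -1.15 and -1.03 in them. Median centring gave a median of -1.28 and quantile normalization -1.32. The methods' t-test with step-down Bonferroni adjustment called 4 members, and over the panel 72 genes instead of 394. For RBS lesions against Shh-MBs the median was -2.16 with median centring, -1.70 with the total without the 3 most abundant genes and -1.81 with quantile normalization, and the methods' t-test with that adjustment called 3 members and 80 genes of the panel instead of 468. For Shh-MBs against control eyes, 7 members were called with median centring, with the total without the 3 most abundant genes and with quantile normalization, with medians of 0.86, 0.51 and 0.55, while 40.4%, 20.8% and 28.7% of the panel were called higher. The differences that changed sign under these scalings were those of Mcm4 (0.49, 0.14 and 0.12), Pole2 (0.58, 0.22 and 0.30) and Cdc6 (0.11 with median centring and 0.56 with quantile normalization), and Pole2 ran from -0.22 without Shh-MB 2 to 0.14 without Shh-MB 1. The methods' t-test with Bonferroni adjustment called 0 members in this comparison and 36 genes of the panel instead of 316, while limma with an unadjusted p under 0.05 called 3 members. The fits that left out a sample called 0 to 3 members. The cause of these changes was not tested.

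With the replicate number as a block, 9 members were called for RBS lesions against control eyes, 7 against Shh-MBs (without Cdc6, adjusted p = 0.0963, and Pole2, adjusted p = 0.0599, by limma) and 0 for Shh-MBs against control eyes. Over the panel this fit called 14.2% lower for RBS lesions against control eyes and 10.9% lower against Shh-MBs. For Shh-MBs against control eyes it called 6.62% of the panel higher and 23.2% lower. This fit leaves out samples without a partner number. Deviations of same-numbered samples from their group means correlated between -0.15 and 0.19 over the 770 genes. The number of samples limits the precision throughout, and Cdc6 lay near the floor of the assay in RBS lesions.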
